A study of Mus musculus with 18 samples.

Results

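The genes described here are 5 genes of cellular oxygen sensing, Hif1a, Arnt, Vhl, Egln1 and Egln3. They were taken by their platform symbol, which 10 of the 28704 spots of a mouse cDNA microarray carry: 1 spot for Hif1a, 3 for Arnt, 2 for Vhl, 3 for Egln1 and 1 for Egln3. All 5 were among the 10272 genes and unnamed spots that could be tested. None of the 10 spots is listed with a second gene.

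The hearts came from mice kept under chronic constant hypoxia (CCH) for 1, 2 or 4 weeks, from mice kept under chronic intermittent hypoxia (CIH) for the same durations, and from control mice of 1, 2 or 4 weeks. Each of the 18 arrays compared a male heart, labelled with the dye Cy5, with a female heart of the same condition and duration, labelled with the dye Cy3. Each of the 9 groups had 2 arrays, so CCH, CIH and control had 6 arrays each, and this number limits the precision. Strain, age and oxygen level are not given in the sources used here, and no group carries a stated mutation. Nothing in the labels tells whether replicate arrays used different animals. The p-values then cover only the spread between arrays, which may be technical.

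Each value is a log2 ratio of male over female, centred on the median of its array, so 0 means a ratio equal to that of the median spot. The labels do not state the direction. It was read from the Y-linked gene Eif2s3y, which averaged 1.52 ± 0.09 (SE) and was above 0 on 17 of 18 arrays, with its lowest value of -0.026 on CIH 4 weeks replicate 1. A difference between hypoxia and control is therefore a change in the male-to-female ratio. It cannot show which sex changed, and a change of equal size in both sexes leaves no trace in it.

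HIF1A and ARNT together form hypoxia-inducible factor 1 (HIF-1), the transcription factor that switches on genes of glycolysis, red cell production and vessel growth when oxygen is low. In well-oxygenated cells the prolyl hydroxylases EGLN1 (also called PHD2) and EGLN3 (PHD3) use oxygen to mark HIF1A, and VHL, the substrate-binding part of a ubiquitin ligase, binds the mark and sends HIF1A to the proteasome. Much of this control acts on the HIF1A protein, which these arrays do not measure, while Egln1 and Egln3 are themselves known target genes of HIF and so form a feedback loop.

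The promoters of the hydroxylase genes are shown because both genes are known HIF targets. Whether HIF acts on either gene through the 250 bases shown was not tested. HIF binds the core motifs ACGTG and GCGTG, which were searched on both strands in the 250 bases before each gene's start. The sequences below are from RefSeq, build GRCm38.p6, read 5′ to 3′ on the gene's own strand, and the capitals mark the matches. The first lies at chr8:124949255-124949504 and the second at chr12:54203875-54204124, both on the minus strand.
Egln1: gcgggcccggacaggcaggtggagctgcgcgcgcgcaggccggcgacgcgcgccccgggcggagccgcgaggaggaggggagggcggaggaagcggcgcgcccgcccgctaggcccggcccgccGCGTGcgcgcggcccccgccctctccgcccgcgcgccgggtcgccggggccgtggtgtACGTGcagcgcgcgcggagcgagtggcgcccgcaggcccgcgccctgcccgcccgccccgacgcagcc
Egln3: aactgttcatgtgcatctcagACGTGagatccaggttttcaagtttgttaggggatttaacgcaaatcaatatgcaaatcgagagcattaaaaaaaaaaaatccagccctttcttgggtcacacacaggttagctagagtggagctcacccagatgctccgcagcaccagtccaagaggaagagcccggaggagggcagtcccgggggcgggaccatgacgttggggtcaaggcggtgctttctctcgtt
Egln1 held 1 ACGTG that begins 68 bases before the start and 1 GCGTG that begins 126 bases before it. Egln3 held 1 ACGTG, 229 bases before the start. Among the other genes Hif1a held 3 matches to ACGTG, of which 2 overlap on opposite strands, Arnt held 1 match to GCGTG and Vhl held 0 matches. Of 32851 mouse windows of the same length, 38.6% held at least 1 of the motifs, 16.57% ACGTG and 28.16% GCGTG, so a match is common. A match describes these letters and does not show a bound site.

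The arrays differed in how many spots had a value. Between 20489 and 24512 spots had a value on the 1-week arrays, 15802 to 19720 on the 2-week arrays and 12650 to 17904 on the 4-week arrays. Arrays of 1 group correlated over all spots at r = -0.04 to 0.69, and over all 153 pairs of arrays r ran from -0.53 to 0.74, with 12 pairs under -0.3. At 1, 2 and 4 weeks the replicate arrays had r = -0.04, 0.09 and 0.14 in control hearts. They had 0.35, 0.65 and 0.68 in CCH hearts and 0.37, 0.69 and 0.09 in CIH hearts. The title of CIH 1 week replicate 1 disagrees with its source names, which give 2 weeks of CCH, and control 2 weeks replicate 1 carries a code of week 1. Both were kept by their titles, and with CIH 4 weeks replicate 1, for its Eif2s3y value, they are the 3 doubted arrays left out together below. Of 12 cardiomyocyte markers, 6 were on the array, 4 had a value and 2 could be tested, Myl7 and Pln, and ratios give no level, so the tissue could not be checked. The median of these 2 markers stood apart on CCH 1 week replicate 1, at 3.31, with the other 17 arrays at -1.38 to 1.23. The median difference of the 2 markers was 0.42 in CCH minus control and 0.49 in CCH minus CIH, with 0 of 2 markers called. By the gene means the same array held the lowest ratio of Hif1a (-0.63) and of Arnt (-0.57) and the highest of Vhl (0.53). Without it CCH minus control was 0.18 for Hif1a, 0.15 for Arnt, -0.12 for Vhl, -0.0022 for Egln1 and 0.42 for Egln3, with adjusted p of 0.627 or more in limma. All 5 oxygen-sensing genes had a value on all 18 arrays, but Arnt spot 2 was measured on the 6 1-week arrays only and Vhl spot 1 on 14 arrays. The Arnt mean of -0.57 on CCH 1 week replicate 1 therefore rests on 3 spots, at -0.74, -1.13 and 0.16 for spots 1, 2 and 3. By spot 1 the lowest ratio of Arnt was -0.87, on control 2 weeks replicate 2.

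No difference in the male-to-female ratio between hypoxia and control hearts passed the test for any of the 5 genes. In CCH minus control, 0 of 5 passed an adjusted p of 0.05 in limma and 0 of 5 had an unadjusted p under 0.05, where the background over all 10272 units was 0% adjusted and 6.32% unadjusted. In CIH minus control, 0 of 5 passed and 0 of 5 had an unadjusted p under 0.05, against a background of 0.00974% and 12.7%. In CCH minus CIH, 0 of 5 passed, against 0.00974%, and 1 of 5, Egln3, had an unadjusted p under 0.05, against 9.28%. The median difference over the 5 genes was 0.055 for CCH minus control, 0.00045 for CIH minus control and 0.0053 for CCH minus CIH, and over all units tested it was -0.04, -0.01 and -0.03 on the same log2 scale.

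Within a duration, both hypoxia arrays often lay on 1 side of both control arrays, for the 5 genes and for all units alike. For CCH this held for 3, 4 and 1 of the 5 genes at 1, 2 and 4 weeks, against a background of 39.5%, 58.3% and 38.7% of the units measured on all 4 arrays. For CIH it held for 0, 3 and 0 of the 5 genes, against 25.8%, 64.5% and 24.8%. In all 11 of 30 groups were separated in this way, and the separations given for single genes are descriptions to be read against these shares.

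**Figure D1:**
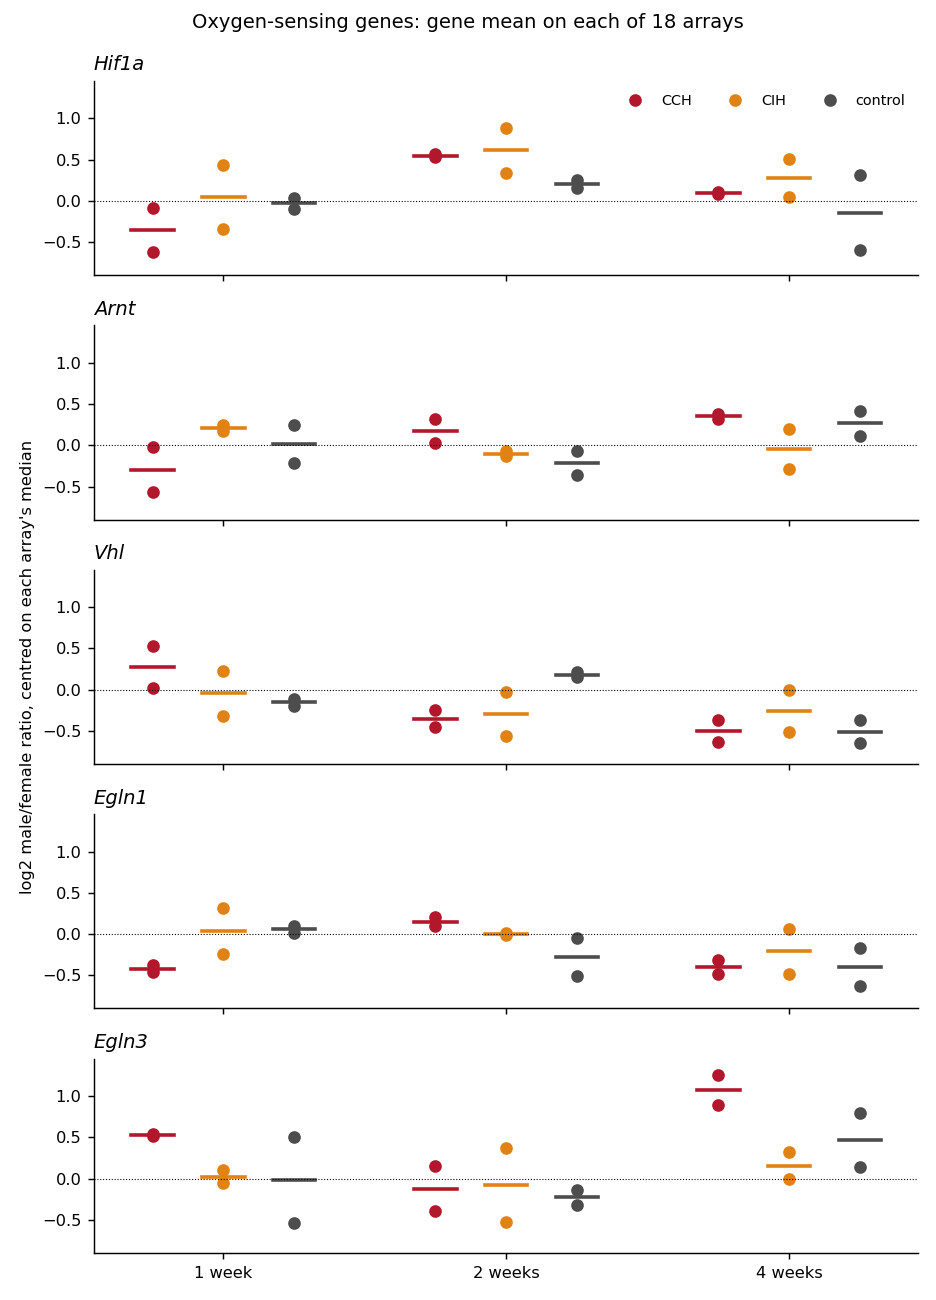
Centred log2 ratio of male over female (vertical axis) for each of the 5 genes, by condition and weeks of exposure (horizontal axis), with 1 point per array and a bar at the mean of the 2 arrays. Points of hypoxia and control arrays overlap for every gene over the 3 durations, and the highest point of all is Egln3 at 1.25 on a 4-week CCH array.

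Hif1a, the oxygen-regulated subunit, had ratios of -0.63 and -0.083 after 1 week of CCH, 0.56 and 0.53 after 2 weeks and 0.11 and 0.080 after 4 weeks. In CIH hearts Hif1a had 0.43 and -0.34 after 1 week, 0.34 and 0.88 after 2 weeks and 0.51 and 0.041 after 4 weeks. In control hearts it had -0.094 and 0.038 at 1 week, 0.15 and 0.25 at 2 weeks and -0.60 and 0.31 at 4 weeks. At 2 weeks both CCH arrays and both CIH arrays lay above both control arrays, a duration at which 58.3% (CCH) and 64.5% (CIH) of all units were separated, while at 1 and 4 weeks each hypoxia group overlapped its control. The order of the condition means was CIH, CCH, control, with 0.31 ± 0.42 in CIH hearts, 0.096 ± 0.44 in CCH hearts and 0.0096 ± 0.33 in control hearts (SD, n = 6 each), and no neighbours in it differed beyond their spread. CIH minus control was 0.30 ± 0.19 (SE; 95% interval -0.097 to 0.70; limma adjusted p = 0.475), with 5 of 6 CIH arrays above the control mean of their duration. CCH minus control was 0.086 ± 0.19 (-0.31 to 0.48; adjusted p = 0.912). CCH minus CIH was -0.21 ± 0.19 (-0.61 to 0.18; adjusted p = 0.796), with all 6 CCH arrays below the CIH mean of their duration. Without the 3 doubted arrays (a choice made after seeing the data), CIH minus control for Hif1a was 0.078 and CCH minus CIH was -0.0078.

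Arnt, the constitutive partner of HIF1A, had -0.57 and -0.027 after 1 week of CCH, 0.025 and 0.32 after 2 weeks and 0.32 and 0.38 after 4 weeks. In CIH hearts it had 0.17 and 0.24 after 1 week, -0.13 and -0.074 after 2 weeks and -0.29 and 0.20 after 4 weeks. In control hearts it had 0.24 and -0.22 at 1 week, -0.074 and -0.36 at 2 weeks and 0.42 and 0.12 at 4 weeks. By the gene mean, both CCH arrays of 2 weeks lay above both controls, and the other 5 groups of hypoxia arrays overlapped theirs. By spot 1 the 2-week CCH arrays also lay above the controls. By spot 3 they had 0.12 and 0.18 and the controls -0.028 and 0.14, so they overlapped. The condition means were close together, at 0.075 ± 0.36 in CCH hearts, 0.021 ± 0.22 in CIH hearts and 0.020 ± 0.29 in control hearts (SD, n = 6 each). CCH minus control was 0.055 ± 0.14 (95% interval -0.25 to 0.36; adjusted p = 0.933) and CIH minus control was 0.00045 ± 0.14 (-0.31 to 0.31; adjusted p = 0.998). CCH minus CIH was 0.054 ± 0.14 (-0.25 to 0.36; adjusted p = 0.952). All 3 intervals lie between -0.31 and 0.36 on the log2 scale.

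Arnt spot 3 did not follow the other Arnt spots. Spots 1 and 3 had r = -0.04 over 18 arrays, while spots 1 and 2 had r = 0.80 over the 6 arrays that measured both. The gene mean had r = 0.93 with spot 1 and 0.21 with spot 3. Spot 1 had 0.85 and 0.84 on the 4-week CCH arrays and -0.74 and -0.14 on the 1-week CCH arrays. On the same arrays spot 3 had -0.20 and -0.080 at 4 weeks and 0.16 and 0.078 at 1 week, the opposite order. In a fit of single spots, where 0% of 14024 spots passed in CCH minus control and 5.66% had an unadjusted p under 0.05, Arnt spot 1 gave 0.27 ± 0.18 (adjusted p = 0.804) and spot 3 gave -0.059 ± 0.14 (adjusted p = 0.934).

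Vhl, which recognises hydroxylated HIF1A, had 0.53 and 0.021 after 1 week of CCH, -0.25 and -0.46 after 2 weeks and -0.37 and -0.63 after 4 weeks. In CIH hearts it had -0.31 and 0.22 after 1 week, -0.025 and -0.56 after 2 weeks and -0.51 and -0.0026 after 4 weeks. In control hearts it had -0.20 and -0.11 at 1 week, 0.15 and 0.21 at 2 weeks and -0.65 and -0.37 at 4 weeks. By the gene mean, both CCH arrays lay above the controls at 1 week and below them at 2 weeks. Both CIH arrays lay below the controls at 2 weeks, and the remaining groups overlapped. On control 2 weeks replicate 2 the gene mean is spot 2 alone. By spot 2 the 2-week CIH arrays had 0.024 and -1.19 and the controls 0.0075 and 0.21, so they overlapped. CCH arrays on opposite sides of the controls at 1 and 2 weeks were found for Vhl and Egln1, 2 of 5 genes, against a background of 24.1% of all units. Averaged over durations the 3 conditions were close, at -0.19 ± 0.41 in CCH hearts, -0.20 ± 0.31 in CIH hearts and -0.16 ± 0.32 in control hearts (SD, n = 6 each). CCH minus control was -0.031 ± 0.15 (95% interval -0.36 to 0.30; adjusted p = 0.968), CIH minus control was -0.036 ± 0.15 (-0.37 to 0.29; adjusted p = 0.912) and CCH minus CIH was 0.0053 ± 0.15 (-0.32 to 0.34; adjusted p = 0.995).

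Over all 18 arrays the mean ratio of Vhl was -0.18 ± 0.06 (SE; adjusted p = 0.0424), below 0 on 13 of 18 arrays, so Vhl was lower in the male channel. Leukocyte and macrophage markers were also lower there, with a median of -0.35 and 6 of 7 tested genes called, and their median per array had r = 0.49 with Vhl (rho = 0.50), and 0.42 without the 2 farthest arrays. It ran from -0.95 to -0.15 over CCH arrays, -0.72 to -0.14 over CIH arrays and -0.56 to 0.081 over control arrays. The median of the 6 tested fibroblast markers had r = -0.50 with Vhl (rho = -0.51), and -0.50 without the 2 farthest arrays. Over all arrays the 6 markers had a median of 0.02. The 2 called went opposite ways, Dcn at -0.29 and Col3a1 at 0.19. The median per array ran from -0.24 to 0.19 over CCH arrays, -0.11 to 0.25 over CIH arrays and -0.32 to 0.31 over control arrays. The part of these cells in the Vhl result was not tested. Vhl was the only one of the 5 genes past the threshold in this comparison, against a background of 27.7% of all units, 18.7% lower and 8.99% higher, so 1 of 5 is close to the background. The 2 spots had opposite signs, and r between them was -0.22 over 14 arrays. Vhl spot 2 averaged -0.43 ± 0.09 (adjusted p = 0.00385), below 0 on 14 of 18 arrays, while spot 1 averaged 0.20 ± 0.07 (adjusted p = 0.0563), above 0 on 12 of 14 arrays. On the 4 arrays without spot 1, the gene mean is spot 2 alone. Leaving out 1 array ended the call of the gene mean for 13 of the 18 arrays, with values of -0.21 to -0.15 over all 18; it held only without CCH 1 week replicate 1, CIH 1 week replicate 2, CIH 2 weeks replicate 1, CIH 4 weeks replicate 2 or control 4 weeks replicate 2. Since the male heart was always in Cy5, a sex difference and a dye effect cannot be told apart.

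**Figure D2:**
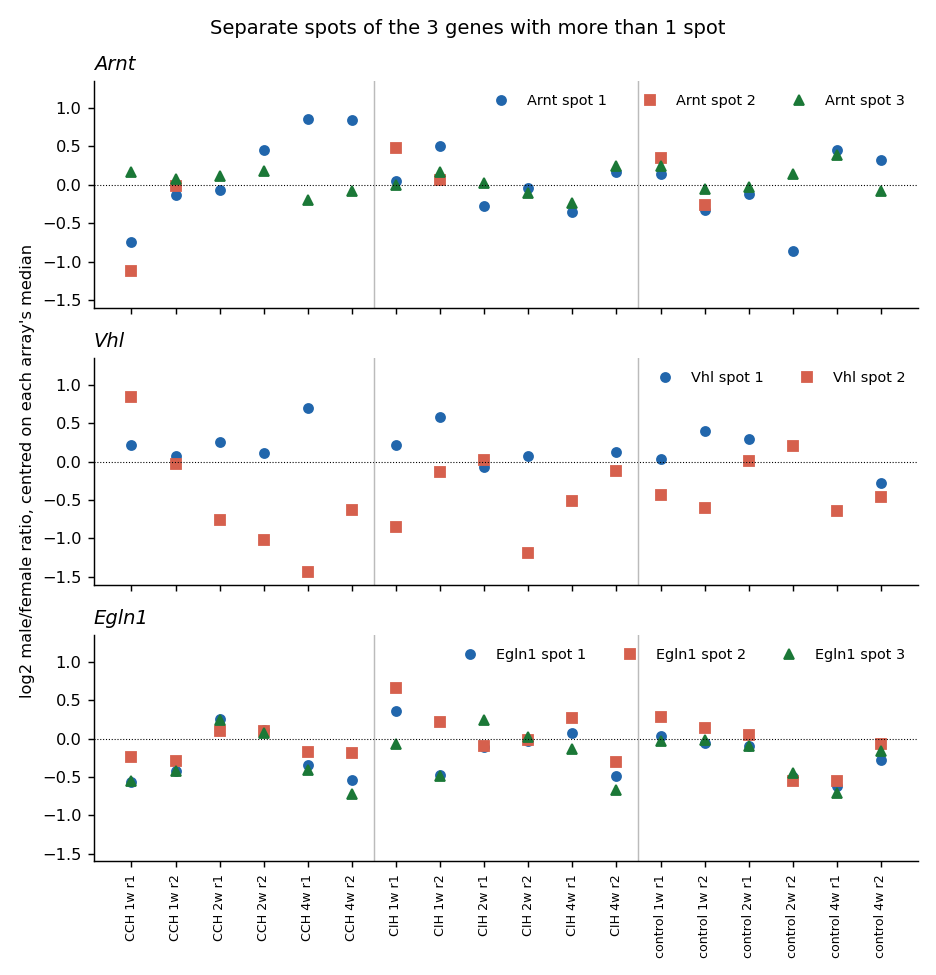
Centred log2 ratio of male over female (vertical axis) of the 8 spots of Arnt, Vhl and Egln1 on each of the 18 arrays (horizontal axis), with a symbol per spot. Vhl spot 2 lies mostly below 0 and Vhl spot 1 mostly above it, while the 3 Egln1 spots follow each other.

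Egln1, the main prolyl hydroxylase of HIF1A, had -0.46 and -0.38 after 1 week of CCH, 0.20 and 0.093 after 2 weeks and -0.31 and -0.48 after 4 weeks. In CIH hearts it had 0.32 and -0.25 after 1 week, 0.013 and -0.014 after 2 weeks and 0.068 and -0.49 after 4 weeks. In control hearts it had 0.096 and 0.018 at 1 week, -0.051 and -0.50 at 2 weeks and -0.63 and -0.17 at 4 weeks. By the gene mean, both CCH arrays lay below the controls at 1 week and above them at 2 weeks. Both CIH arrays lay above the controls at 2 weeks, and the remaining groups overlapped. By spot 1 the 2-week CIH arrays had -0.11 and -0.038 and the controls -0.099 and -0.51, so they overlapped. By spot 2 they had -0.095 and -0.022 and the controls 0.043 and -0.55, so they overlapped too. By the remaining spot they had 0.25 and 0.018 and lay above the controls, at -0.099 and -0.45. The condition means were -0.22 ± 0.29 in CCH hearts, -0.058 ± 0.28 in CIH hearts and -0.21 ± 0.29 in control hearts (SD, n = 6 each). CCH minus control was -0.016 ± 0.15 (95% interval -0.33 to 0.30; adjusted p = 0.984), CIH minus control was 0.15 ± 0.15 (-0.17 to 0.46; adjusted p = 0.625) and CCH minus CIH was -0.16 ± 0.15 (-0.48 to 0.15; adjusted p = 0.811).

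The Egln1 spots followed each other, with r = 0.81 between spots 1 and 2, 0.86 between spots 1 and 3 and 0.58 between spots 2 and 3 over 18 arrays. The gene's mean ratio over all arrays was -0.16 ± 0.06 (adjusted p = 0.0578), below 0 on 11 of 18 arrays, just outside the threshold. Among single spots, where 28.9% of 14024 passed in this comparison, spot 1 averaged -0.21 (adjusted p = 0.0304), spot 3 averaged -0.24 (adjusted p = 0.0109) and spot 2 averaged -0.037 (adjusted p = 0.687). The gene mean passed at -0.19 when any 1 of these arrays was left out: CIH 1 week replicate 1, CIH 4 weeks replicate 1, control 4 weeks replicate 2 and control 2 weeks replicate 1.

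Egln3, the hydroxylase known for its strong induction by HIF in many cell types, had 0.54 and 0.52 after 1 week of CCH, -0.40 and 0.15 after 2 weeks and 1.25 and 0.89 after 4 weeks. In CIH hearts it had -0.050 and 0.099 after 1 week, 0.36 and -0.53 after 2 weeks and -0.0070 and 0.32 after 4 weeks. In control hearts it had 0.50 and -0.54 at 1 week, -0.32 and -0.13 at 2 weeks and 0.80 and 0.14 at 4 weeks. Both CCH arrays lay above both controls at 1 week and at 4 weeks, by a narrow margin each time, and the CIH arrays overlapped the controls at every duration. The order of the condition means was CCH, control, CIH, at 0.49 ± 0.58 in CCH hearts, 0.033 ± 0.32 in CIH hearts and 0.073 ± 0.51 in control hearts (SD, n = 6 each). CCH minus control was 0.42 ± 0.20 (95% interval -0.018 to 0.86; unadjusted p = 0.0588, adjusted p = 0.749), with 5 of 6 CCH arrays above the control mean of their duration. CCH minus CIH was 0.46 ± 0.20 (0.023 to 0.90; unadjusted p = 0.0403, adjusted p = 0.507), with 5 of 6 CCH arrays above the CIH mean, and it did not pass the correction over all units. CIH minus control was -0.041 ± 0.20 (-0.48 to 0.40; adjusted p = 0.927), so neighbours in this order did not pass the test either.

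Egln3 rested on 1 spot and had the highest residual SD of the 5 genes, where Arnt, Vhl and Egln1 are means of spots. Among single spots, Vhl spot 2 had a higher SD over 18 arrays, 0.55 against 0.50 for Egln3. The residual SD of Egln3 between arrays of a group was 0.402, higher than that of 81.8% of all units. It was 0.355 for Hif1a, 0.267 for Vhl, 0.246 for Egln1 and 0.238 for Arnt, with a median of 0.279 over all units. The mean ratio of Egln3 over all arrays was 0.20 ± 0.08 (adjusted p = 0.0862), above 0 on 11 of 18 arrays. It was 0.25 without CIH 2 weeks replicate 2 and 0.26 without control 1 week replicate 2. With Vhl and Egln1 it made 3 of 5 genes with an unadjusted p under 0.05 against 0, where the background was 41.1%. Hif1a averaged 0.14 ± 0.08 (adjusted p = 0.184) and Arnt 0.039 ± 0.06 (adjusted p = 0.649). In control hearts alone 0 of 5 genes differed from 0 in limma, and 0 of 5 had an unadjusted p under 0.05, against backgrounds of 0.00974% and 9.15%.

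**Figure D3:**
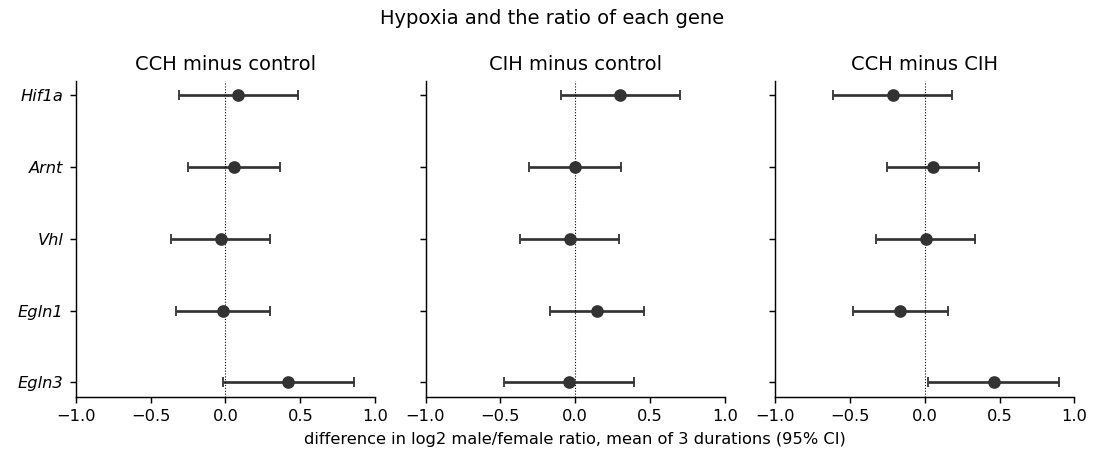
Difference in the centred log2 ratio for each gene in CCH minus control (left), CIH minus control (middle) and CCH minus CIH (right), as the limma estimate with its 95% interval. Of the 15 intervals, 14 include 0, and that of Egln3 in CCH minus CIH runs from 0.023 to 0.90 before any correction.

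**Figure D4:**
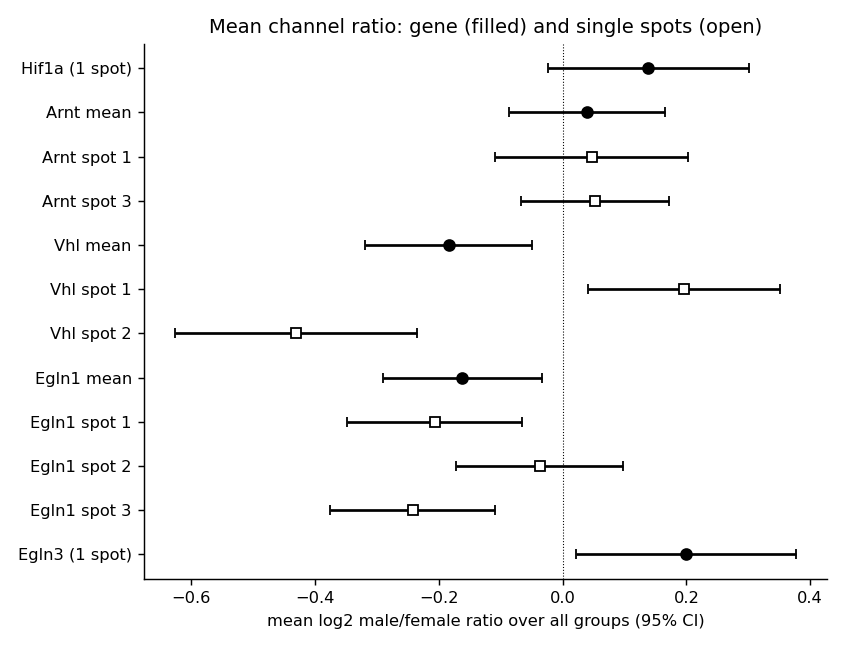
Mean centred log2 ratio over all 18 arrays (horizontal axis) for each gene (filled) and for the spots of Arnt, Vhl and Egln1 that could be tested (open), with its 95% interval. Vhl spot 2 lies below 0 at -0.43 and Vhl spot 1 above it at 0.20.

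The difference between hypoxia and control hearts was next set out by duration. Of 30 differences of gene means, 5 genes by 2 kinds of hypoxia by 3 durations, 0 passed in limma. They ran from -0.53 to 0.60, and 0 had an unadjusted p under 0.05. The backgrounds of adjusted calls were 0%, 0.0195% and 0% for CCH at 1, 2 and 4 weeks, and 0%, 0.00974% and 0% for CIH. Those at an unadjusted p under 0.05 were 6.15%, 9.38% and 15.1% for CCH, and 2.34%, 22.7% and 8.14% for CIH. The lowest unadjusted p was 0.0658, for Vhl after 2 weeks of CCH, with a difference of -0.53 ± 0.27 (adjusted p = 0.498). After 4 weeks of CCH Egln3 differed by 0.60 ± 0.35 (adjusted p = 0.425) and Hif1a by 0.24 ± 0.32 (adjusted p = 0.766). After 2 weeks of CIH Vhl differed by -0.47 ± 0.27 (adjusted p = 0.293) and Hif1a by 0.41 ± 0.32 (adjusted p = 0.423). A test of change in the hypoxia effect over the durations (limma's F test) passed for 0 of 5 genes, and 0 had an unadjusted p under 0.05, against backgrounds of 0% and 13%. The adjusted p ran from 0.411 for Arnt to 0.776 for Hif1a. In the same test of single spots, where 0% passed and 13.1% had an unadjusted p under 0.05, Arnt spot 1 and Vhl spot 2 had unadjusted p-values of 0.0163 and 0.0159 (adjusted p = 0.376 for both).

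Across the 18 arrays the ratios of some genes moved together, which is given as a description since the points share arrays and depth. Hif1a and Egln1 had r = 0.65, while Egln3 ran opposite to both, with r = -0.53 to Hif1a and -0.56 to Egln1. Arnt and Vhl had r = -0.58, Hif1a and Vhl -0.43, and Arnt and Egln3 0.45. The other 4 pairs had r of -0.19 to -0.05. The values with Arnt differed between its spots. Arnt spot 1 had r = -0.63 with Vhl spot 2 and 0.31 with Vhl spot 1. Arnt spot 3 had 0.35 with Vhl spot 2 and -0.16 with Vhl spot 1. With Egln3, Arnt spot 1 had r = 0.52 and Arnt spot 3 had 0.13. The 7 tested of 12 erythroid markers had a median ratio of -1.90 to 1.03 over CCH arrays, -2.37 to 0.22 over CIH arrays and -0.39 to 0.91 over control arrays, and none of them was called in a hypoxia comparison. Their median difference was -1.20 in CIH minus control and 1.03 in CCH minus CIH, where the median size over all units was 0.18 and 0.13, and it was -0.13 in CCH minus control. This median had r = -0.68 with Hif1a (rho = -0.59), -0.59 with Egln1 (rho = -0.60) and 0.61 with Egln3 (rho = 0.57), and without the 2 arrays farthest from its own median r was -0.49, -0.56 and 0.43. On the array with the lowest erythroid median, CIH 2 weeks replicate 2, Hif1a had its highest ratio, 0.88, and Egln3 had -0.53. The 4 tested of 10 skeletal muscle markers had r = 0.63 with Egln1 (rho = 0.51), and 0.42 without the 2 farthest arrays. Their median ran from -0.61 to -0.15 over CCH arrays, -0.13 to 0.20 over CIH arrays and -0.92 to 0.093 over control arrays. The 1 tested of 5 lung markers, Sftpb, had r = -0.64 with Hif1a (rho = -0.54) and -0.61 without the 2 farthest arrays. It ran from -0.42 to 0.39 over CCH arrays, -0.40 to -0.075 over CIH arrays and -0.22 to 0.34 over control arrays. The part of these cell types in the results for Hif1a, Egln1 and Egln3 was not tested.

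**Figure D5:**
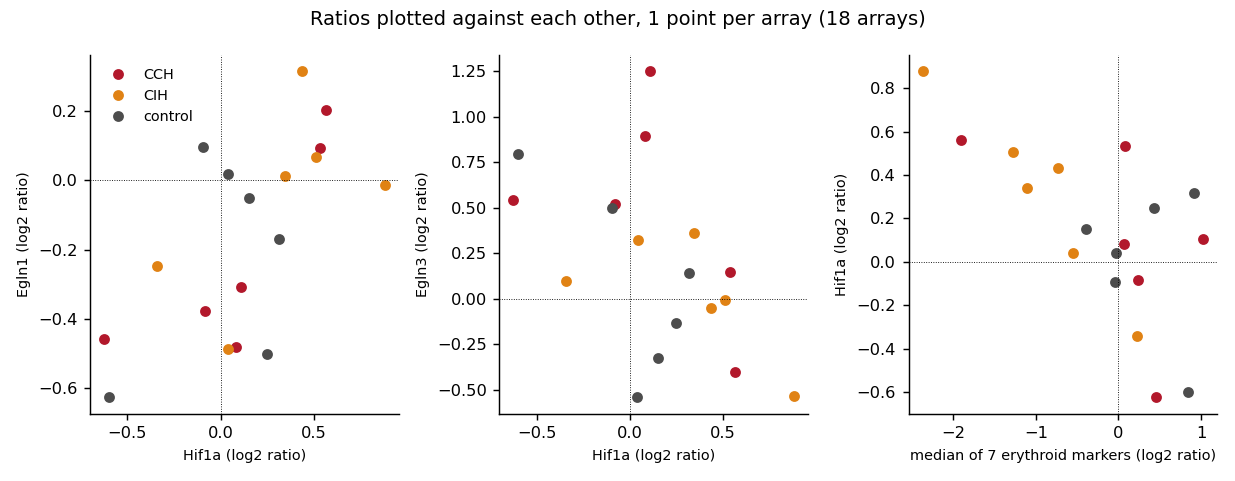
Centred log2 ratios on both axes, 1 point per array, coloured by condition: Egln1 against Hif1a, Egln3 against Hif1a, and Hif1a against the median of 7 erythroid markers. The first pair has r = 0.65, the second r = -0.53 and the third r = -0.68 over 18 arrays, with wide scatter in each.

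By the rule of the 3 named genes with the highest Pearson r over at least 15 arrays, among 7033 candidates, the closest to Hif1a were Eif4b at 0.93, Uxs1 at 0.93 and Gtf3c6 at 0.92. The closest to Egln1 were Ehd4 at 0.93, Hccs at 0.92 and Bzw2 at 0.91, and the closest to Egln3 were Sympk at 0.92, Thap3 at 0.90 and Crtc1 at 0.89. Vhl was followed by Krt4, Inpp5b and Ddx10, all at 0.84, and Arnt by Tspan5 at 0.74, Tyk2 at 0.71 and E130309D02Rik at 0.71. The best matches of Arnt had lower r than those of the other 4 genes.

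The wider pathway was read from 5 lists. Of the list of other HIF subunits and Arnt-like genes, 2 of 5 were on the array, Arnt2 and Arntl, and 0 could be tested. The lists of other oxygen sensors, VHL ligase partners, genes of HIF1A stability and synthesis, and HIF targets had 4 of 6, 8 of 12, 15 of 26 and 28 of 50 genes tested, 55 in all. In limma 0 of these 55 passed in any of the 3 hypoxia comparisons. At an unadjusted p under 0.05 there was 1 in CCH minus control, 4 in CIH minus control and 3 in CCH minus CIH, where the backgrounds of 6.32%, 12.7% and 9.28% of all units apply. The median difference over the 55 was 0.032 for CCH minus control, 0.067 for CIH minus control and -0.037 for CCH minus CIH.

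Among the sensors Egln2, the remaining HIF prolyl hydroxylase, differed by -0.015 ± 0.12 in CCH minus control (adjusted p = 0.981) and Kdm6a, an X-linked histone demethylase that needs oxygen, by 0.24 ± 0.13 (adjusted p = 0.749). In CIH minus control Kdm5a, also a histone demethylase, differed by -0.12 ± 0.13 (adjusted p = 0.639) and P4htm, a membrane-bound prolyl hydroxylase, by 0.070 ± 0.12 (adjusted p = 0.783). The 8 VHL partners, which include Cul2, the scaffold of the VHL ligase (0.12 ± 0.13 in CCH minus control, adjusted p = 0.808), had a median of -0.14 in CCH minus CIH, with 8 of 8 below 0 and 0 called, where 55.6% of all units were below 0 and their median was -0.03. In CIH minus control Ube2d2a, a ubiquitin-conjugating enzyme, differed by 0.21 ± 0.11 (adjusted p = 0.440). Among genes that act on HIF1A, Apex1, a redox regulator of transcription factors, differed by 0.32 ± 0.13 in CCH minus control and Cited4 by -0.26 ± 0.13 (adjusted p = 0.749 for both). Os9, whose protein binds HIF1A and prolyl hydroxylases, differed by 0.46 ± 0.15 in CIH minus control (adjusted p = 0.217) and Senp1, a SUMO protease, by -0.38 ± 0.16 (adjusted p = 0.341). Among HIF targets the smallest p belonged to Bnip3l, a mitophagy receptor, at -0.99 ± 0.26 in CIH minus control (adjusted p = 0.0729), and Pdk1, a kinase that restrains pyruvate oxidation, differed by 0.41 ± 0.21 (adjusted p = 0.417). In CCH minus control Ndrg1, a stress-response gene, differed by 0.25 ± 0.12 and Igf2, a growth factor gene, by -0.36 ± 0.20 (adjusted p = 0.749 for both).

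Over all arrays 11 of the 55 genes passed against 0, where the background was 27.7%: by their mean 2 were higher and 9 lower in the male channel. Cited2, which competes with HIF1A for its coactivator, averaged 0.45 ± 0.10 (adjusted p = 0.00597), above 0 on 14 of 16 arrays. Os9 averaged 0.25 ± 0.06 (adjusted p = 0.0107), but it was above 0 on 8 and below 0 on 7 of its 15 arrays. Kdm6a averaged -0.49 ± 0.05 (adjusted p = 9.5e-05), below 0 on 17 of 18 arrays. Of the VHL partners Rbx1, the RING subunit of the ligase, averaged -0.28 ± 0.05 (adjusted p = 0.00145). Nedd8 and Cops5, which act on cullin ligases, averaged -0.20 ± 0.05 and -0.20 ± 0.06. Stub1, a chaperone-linked ubiquitin ligase, averaged -0.36 and Pkm, the pyruvate kinase gene that also acts with HIF1A, -0.24. The HIF targets were Cxcl12, a chemokine gene, at -0.23, Igf2 at -0.25 and Mxi1, a MYC antagonist, at -0.15. The count was 7 without CIH 4 weeks replicate 1 and 7 without control 4 weeks replicate 2.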

How the data were processed

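RNA of male and female mouse hearts was compared on 18 2-colour cDNA arrays. What the authors deposited is the log2 ratio between both channels of each spot. Per the labels the male cDNA carried Cy5 and the female cDNA Cy3. Base 2 was read from the values, since the linear ratio averages 1 on every array. Background correction, spot filter, normalization and software are not given in the sources used here. The direction, male over female, was taken from the Y-linked gene Eif2s3y.

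The median of every array was set to 0, and a gene's spots were averaged. A gene or unnamed spot was tested where all 9 groups had 1 measured array or more, which gave 10272 units, of which 6945 are named genes and 4279 rest on more than 1 spot. Gene symbols are those of the platform annotation. RefSeq held the gene identifier of 18267 spots, and 0 symbols changed. The tests used limma 3.58.1 and R 4.3.3 (9 group means, contrasts averaged over the 3 durations, eBayes with prior degrees of freedom 5.95 and prior SD 0.269). They were two-sided, with p-values adjusted by Benjamini-Hochberg over all units and a threshold of 0.05. A second fit took 14024 single spots. Figures were drawn with matplotlib 3.10.9. The code was tested on simulated data.

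The members and lists were chosen with earlier results of these data known. Genes were named by a rule: the 5 genes and their spots, the list genes past the threshold (at most 6 per list and comparison) or with the smallest p in each direction against control, and for each of the 5 genes the 3 genes most correlated with it.

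Alternatives covered centring, scaling, averaging of spots, the filter, the regrouping of CIH 1 week replicate 1, an additive model, a replicate block and leaving out each array. The replicate block used the letters A and B in the titles. Its fit left out the arrays without a letter, CCH 1 week replicate 1 and CCH 2 weeks replicate 1. Leaving out 3 doubted arrays together (CIH 1 week replicate 1, CIH 4 weeks replicate 1 and control 2 weeks replicate 1) was chosen after seeing the data. The letters A and B in the titles gave no uniform pairing of the arrays. Over 21 pairs of groups the correlation of deviations ran from -0.55 to 0.45 with a median of -0.05, above 0.1 in 9. With 7 groups this cannot exclude that some of them share a pairing.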

Additional observations from a re-analysis of the deposited data

Results flagged for a closer look

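For Vhl and Egln1 the 2 CCH arrays lay on opposite sides of the controls at different durations. Such opposite sides at 1 and 2 weeks were found for 24.1% of all units. For Vhl, CCH minus control was 0.43 at 1 week and -0.53 at 2 weeks. For Egln1, CCH minus control was -0.48 at 1 week and 0.42 at 2 weeks. The change of the hypoxia effect with duration was tested by limma's F test over both kinds of hypoxia, and it did not pass for Vhl (adjusted p = 0.426) or Egln1 (adjusted p = 0.489). The difference between these 2 durations alone was not tested. Of 36 sets of arrays, 1 for each gene or spot and condition, 0 held a value that stood apart from the others.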

How the results depend on the processing

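Over the 3 hypoxia comparisons the 5 genes gave 441 values under alternatives, of which 0 passed, 378 kept their sign and 63 turned it, with a lowest adjusted p of 0.143. The turned differences were at most 0.27 in size, and none was called before. In CCH minus control they were, for Egln1, 0.013 after scaling the arrays to a common spread, 0.020 with quantile normalization, 0.0029 with CIH 1 week replicate 1 regrouped, 0.059 without the 3 doubted arrays, and 0.0046 and 0.0048 for spots 1 and 2, and further -0.059 for Arnt spot 3 and 0.27 for Vhl spot 1. In CIH minus control they were, for Arnt, -0.024 without centring, -0.025 with the median of the spots, -0.0054 with spots on all arrays and -0.087 for spot 3; for Egln3, 0.12 with quantile normalization, 0.15 with a common spread and 0.0072 without the doubted arrays; and for Vhl, 0.053 regrouped, 0.13 without the doubted arrays and 0.099 for spot 1. In CCH minus CIH they were, for Arnt, -0.0024 with quantile normalization and -0.039 without the doubted arrays; for Egln1, 0.023 without the doubted arrays; and for Vhl, -0.0048 without centring, -0.020 with a common spread, -0.041 with spots on all arrays, -0.080 regrouped, -0.17 without the doubted arrays and -0.041 for spot 2. The replicate block, fitted without CCH 1 week replicate 1 and CCH 2 weeks replicate 1, turned Egln1 in CCH minus control to 0.046. It turned Vhl in CCH minus CIH to -0.15, and changed no call of the 5 genes. The block term and the missing arrays cannot be told apart in these values. Leaving out each array in turn gave, in CCH minus control, -0.036 to 0.15 for Arnt, -0.092 to 0.060 for Egln1, -0.066 to 0.24 for Hif1a and -0.12 to 0.053 for Vhl; in CIH minus control, -0.082 to 0.083 for Arnt, -0.21 to 0.13 for Egln3 and -0.13 to 0.053 for Vhl; and in CCH minus CIH, -0.036 to 0.14 for Arnt and -0.084 to 0.095 for Vhl. Against 0 over all arrays, Vhl lost its call with a common spread (-0.14), regrouped (-0.15), with additive terms (-0.18) and without the doubted arrays (-0.12), was 0.20 for spot 1, and ranged from -0.21 to -0.15 with 1 array left out. Egln1 passed without centring (-0.21), with quantile normalization (-0.21), with the median of the spots (-0.20), regrouped (-0.19), without the doubted arrays (-0.25) and for spots 1 (-0.21) and 3 (-0.24), with a range of -0.19 to -0.13 with 1 array left out. Egln3 ranged from 0.14 to 0.26, and Arnt turned to -0.012 without centring and -0.023 with quantile normalization. In control hearts against 0, Arnt turned to -0.010 without centring, -0.079 with quantile normalization, -0.037 with a common spread, -0.028 without the doubted arrays and -0.068 for spot 1, Egln3 to -0.084 with quantile normalization and -0.078 with a common spread, Hif1a to -0.021 without centring and Vhl to 0.075 for spot 1. With 1 array left out, control hearts gave -0.056 to 0.097 for Arnt, -0.10 to 0.25 for Egln3 and -0.14 to 0.16 for Hif1a. Of the 55 pathway genes, 0 to 1 were called in CIH minus control and in CCH minus CIH, 7 to 15 over all arrays and 0 to 1 in control hearts with 1 array left out, and in control hearts 1 without centring, 2 with quantile normalization and 1 with a common spread.

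Counts over all units moved more than those of the 5 genes. Those with the replicate block come from a fit without CCH 1 week replicate 1 and CCH 2 weeks replicate 1. The block term and the missing arrays cannot be told apart in them. In CIH minus control 1 unit passed, against 192 without centring, 213 with the replicate block, 0 with a common spread and 305 without control 2 weeks replicate 1. In CCH minus CIH 1 passed, against 196 without CCH 2 weeks replicate 1. Over all arrays 2845 passed, against 1807 with the replicate block and 1153 without the doubted arrays, and in control hearts 1 passed, against 107 with quantile normalization. The cause of these changes was not tested. With 2 arrays per group and a male-to-female ratio as the only readout, the intervals stay wide, and signal over background is unknown.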
